A study of Homo sapiens with 18 samples.

Results

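MMP14-KO spheroids were compared with control spheroids of the same breast cancer line in hanging droplets, that is, before either met collagen. The comparison rests on the 6 libraries whose labels give the droplet as their treatment, 3 of each genotype, out of 18 libraries in the series. The cells are MDA-MB-231, an established human line of triple-negative breast cancer. The control genotype is labelled Wildtype and the other MMP14-KO, and the labels name no further allele or agent in either. Spheroids of 2000 cells grew for 5 days in droplets, and each sample pooled 100000 cells. The remaining libraries hold both genotypes after 24 h or 48 h in a collagen hydrogel, from which they were recovered with collagenase, while droplet spheroids were only washed and spun. PolyA RNA was read as pairs of 151 bp, and the droplet libraries held 21368840 to 29088883 counts each. Nothing in the labels says if replicates came from separate cultures, so that p-values measure the spread between these samples, which may be technical. It is also not given whether the KO cells are 1 clone or a pool, and a difference by genotype cannot be told apart from any other difference between the cells compared.

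MMP14, also called MT1-MMP, is a membrane-anchored metalloproteinase. It cleaves fibrillar collagen next to the cell surface, and together with TIMP2 it activates the secreted gelatinase precursor proMMP2. Carcinoma cells use it at invadopodia to open paths through dense collagen, and it also sheds or trims surface proteins such as CD44, syndecans and MUC1. In a droplet the cells have no added matrix and touch only each other and what they secrete.

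Cell type markers were checked first, by counts summed over the 6 droplet libraries. All 20 markers of the mesenchymal-like (basal B) class of breast cancer lines, among them VIM, CD44, CAV1 and EGFR, had counts in every library, with sums of 563 to 361248. So did 13 of 15 luminal epithelial markers, so that detection alone does not set these classes apart. The keratin genes KRT8, KRT18 and KRT19 had 76604, 52501 and 52599 counts, against 15 for the estrogen receptor gene ESR1, 4 for the progesterone receptor gene PGR and 56 for the E-cadherin gene CDH1. Of 10 leukocyte markers 6 had counts in every library, led by the lysosomal gene CD68 with 17212 and CD14 with 3814, and 3 were at 0 in all 6, among them CD3E and MS4A1 of lymphocytes. Of 10 endothelial markers 6 had counts in every library, led by ROBO4 with 7803 and PECAM1 with 5068, while CDH5, ERG, CLDN5 and EMCN had 6, 1, 7 and 4. The summed level of the 6 leukocyte markers with enough counts to be tested was 144.6 to 155.5 CPM in control libraries. It was 142.8 to 148.7 CPM in MMP14-KO libraries. CPM is the count scaled to a common library size by TMM, which adjusts for composition.

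MMP14 was tested as the targeted gene. It lies on chromosome 14 at 22836557 to 22849027 of GRCh38, on the plus strand. Its level was 1956, 1928 and 2249.7 CPM in the control libraries and 159, 149 and 156 CPM in the MMP14-KO libraries. The groups lay far apart, and the MMP14-KO libraries kept a low but readable level (log2 fold change -3.73, SE 0.0903, edgeR quasi-likelihood adjusted p = 1.12e-16). These are reads over the whole gene, so they do not show whether the remaining mRNA carries an edit.

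Of 17030 genes tested, 1312 (7.70%) were higher and 1652 (9.70%) lower in MMP14-KO droplets at a Benjamini-Hochberg adjusted p under 0.05 by edgeR's quasi-likelihood test, and "passed", "rose" and "fell" are used below for such genes. Both directions together made up 17.4% of the genes tested. The shares of 7.70% higher and 9.70% lower are the background for each count of list members in droplets below. Most differences were small: the genes that rose had a median log2 fold change of 0.41 and those that fell -0.34, while 331 genes (1.94%) rose and 164 (0.963%) fell at least 2-fold. Most 2-fold rises were of scarce genes. By mean CPM in droplets, 154 rose and 59 fell at least 2-fold under 1 CPM, and 115 and 67 at 1 to 5 CPM. At 5 to 50 CPM 55 rose and 32 fell, and at 50 CPM or above 7 and 6. Genes scarce in control could be tested through counts in other groups and had little room to fall. Over all genes tested the median log2 fold change was -0.0013. Which direction held more genes depended on the scaling: with library-size scaling 1501 were higher and 1461 lower, and with upper-quartile scaling 1532 and 1417. The CPM ranges of the groups did not overlap for 5940 genes (34.9%). Over 500 variable genes, principal component 1 of the droplet libraries split them by genotype (50.4% of variance), and control replicate 1 stood apart on component 2 (15.03%). The total of 2964 passing genes became 1959 without control replicate 2.

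**Figure D1:**
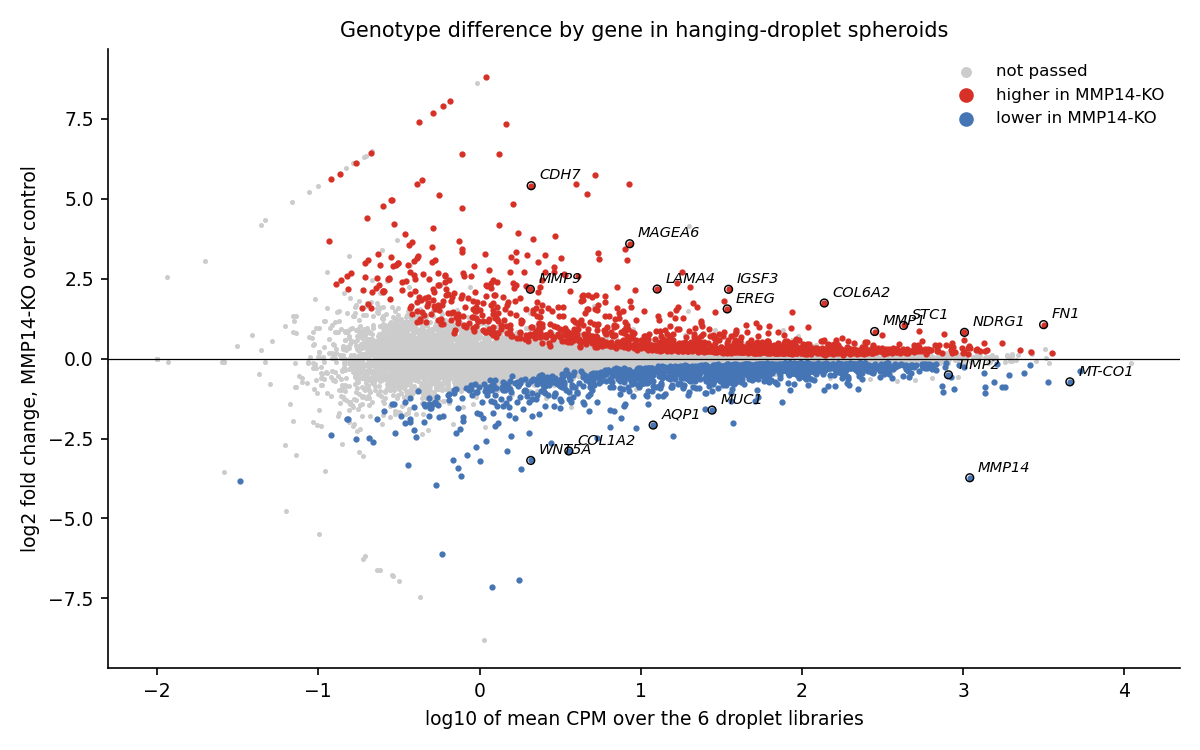
Each point is 1 of 17030 tested genes, with the log10 of its mean CPM over the 6 droplet libraries on the x axis and the log2 fold change of MMP14-KO over control on the y axis. Red and blue points passed the test, 1312 higher and 1652 lower. Most lie near 0, and MMP14 is at -3.73.

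Among the matrix metalloproteinases, the secreted collagenase, gelatinase and stromelysin genes MMP1, MMP9 and MMP10 were higher in MMP14-KO droplets. MMP14 itself and MMP11 were lower, and the other membrane-type members did not pass. Of 23 genes in the family 14 were tested, 3 of them rose (background 7.70%) and 2 fell (background 9.70%), with a median log2 fold change of 0.02. MMP1, the interstitial collagenase, was at 152, 207 and 247 CPM in the control libraries and 362, 389 and 339.6 CPM in the MMP14-KO libraries. Every MMP14-KO library was above every control library, and the controls spread more widely among themselves (log2 fold change 0.85, SE 0.182, edgeR quasi-likelihood adjusted p = 0.00595). MMP9, a gelatinase known for type IV collagen, was at 0.654, 0.535 and 1.05 CPM in control against 3.41, 3.78 and 2.97 CPM in MMP14-KO libraries. It was scarce in both groups, and each MMP14-KO library was above each control (log2 fold change 2.17, SE 0.247, edgeR quasi-likelihood adjusted p = 1.57e-06). MMP10, a stromelysin that can activate other proMMPs, was at 0.654, 0.999 and 0.828 CPM in control against 2.26, 2.00 and 2.53 CPM in MMP14-KO libraries (log2 fold change 1.43, SE 0.256, edgeR quasi-likelihood adjusted p = 0.000362). The groups were again apart for this low-level gene.

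MMP11, a stromelysin usually linked to stroma, was at 14.3, 12.6 and 13.2 CPM in control against 7.85, 8.75 and 8.98 CPM in MMP14-KO libraries. It was lower in each MMP14-KO library (log2 fold change -0.64, SE 0.145, edgeR quasi-likelihood adjusted p = 0.00358). MMP2, whose proenzyme MMP14 activates, was near the floor at 1.82, 1.86 and 1.69 CPM in control against 1.70, 1.72 and 2.36 CPM in MMP14-KO libraries, and the groups overlapped (log2 fold change 0.11, edgeR quasi-likelihood adjusted p = 0.823). The membrane-type relatives MMP15, MMP16 and MMP24 had log2 fold changes of -0.07, -0.10 and -0.65, none of which passed. MMP3, MMP13, MMP19 and MMP28 had 0.92, -0.08, 0.18 and 0.83 and did not pass either. With a filter of at least 5 CPM in 3 libraries, MMP9 and MMP10 are no longer tested and 1 member rose. MMP1, MMP3, MMP9, MMP11, MMP16, MMP19 and MMP24 overlap another gene on the opposite strand, and whether reads were counted by strand is not given in the sources used here, so reads of the partners may be mixed in.

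The inhibitors moved in both directions. TIMP2, which bridges MMP14 to proMMP2 and at higher dose blocks both, fell, and TIMP1, which inhibits secreted MMPs but hardly MMP14, rose. Of 9 tested inhibitor genes 2 rose and 2 fell (median log2 fold change 0.23). TIMP2 was at 979.9, 932 and 943 CPM in the control libraries and 673, 650.1 and 686 CPM in the MMP14-KO libraries. The groups were tight and did not overlap (log2 fold change -0.51, SE 0.0526, edgeR quasi-likelihood adjusted p = 4.37e-07). TIMP1 was at 907, 832 and 1069 CPM in control against 1226, 1204 and 1273 CPM in MMP14-KO libraries (log2 fold change 0.40, SE 0.108, edgeR quasi-likelihood adjusted p = 0.0167), and here control replicate 3 came closest to the KO libraries. TIMP3, which binds the matrix, was at 2564, 2300.4 and 2357 CPM in control against 2842, 2985 and 2618 CPM in MMP14-KO libraries. Its ranges did not overlap, yet it did not pass (log2 fold change 0.23, edgeR quasi-likelihood adjusted p = 0.181). It passed without the filter on low counts and in the fit of the droplet libraries alone (adjusted p = 0.00115 and 0.0232). TIMP4 fell (log2 fold change -0.72, SE 0.205) and SPOCK1, a proteoglycan reported to affect MMP activity, rose from under 0.4 CPM (log2 fold change 1.68, SE 0.357), while RECK, a membrane-anchored MMP inhibitor, was at -0.01 and did not pass.

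The plasminogen activator system is the other main route of pericellular proteolysis: PLAU (urokinase) bound to its receptor PLAUR turns plasminogen into plasmin, PLAT is the tissue-type activator, and serpins hold them back. Of 14 tested genes 7 rose and 1 fell (median log2 fold change 0.20). PLAU was at 223, 227 and 247 CPM in the control libraries and 268, 259 and 294 CPM in the MMP14-KO libraries. The shift was small and the groups did not overlap (log2 fold change 0.24, SE 0.0640, edgeR quasi-likelihood adjusted p = 0.0121). PLAUR was at 141, 145 and 169 CPM in control against 177, 178 and 184 CPM in MMP14-KO libraries (log2 fold change 0.24, SE 0.0731, edgeR quasi-likelihood adjusted p = 0.0237), a similar small rise. PLAT was at 1152, 1065 and 819 CPM in control against 679, 741 and 614 CPM in MMP14-KO libraries. It was the member that fell, with each MMP14-KO library under each control library (log2 fold change -0.58, SE 0.103, edgeR quasi-likelihood adjusted p = 0.00077). ANXA2, a plasminogen receptor subunit, rose with log2 fold change 0.25, and THBD, the thrombin cofactor thrombomodulin, with 0.43. SERPINA5, the protein C inhibitor, and SERPINB2, the intracellular urokinase inhibitor PAI-2, rose from under 1 CPM (1.43 and 1.17). PLAU and TIMP4 overlap genes on the opposite strand, as does TIMP2, and SERPINA5 and SERPINB2 overlap a neighbour on the same strand.

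Several of these calls depended on single libraries. By edgeR's quasi-likelihood test the adjusted p exceeded 0.05 for TIMP1 without control replicate 1 (0.0659), without control replicate 2 (0.0775), without MMP14-KO replicate 3 (0.0605). It did so for TIMP4 without control replicate 2 (0.0851), without MMP14-KO replicate 1 (0.0866), and for PLAU without control replicate 1 (0.0554), without MMP14-KO replicate 3 (0.0773). The same held for PLAUR without control replicate 1 (0.114), without control replicate 2 (0.1), without MMP14-KO replicate 3 (0.0795), and for THBD without control replicate 1 (0.11), without control replicate 2 (0.11), without MMP14-KO replicate 1 (0.055), without MMP14-KO replicate 2 (0.0653), without MMP14-KO replicate 3 (0.0896). The 7 rising members of the plasminogen system became 4 without control replicate 2. Beside these systems, the secreted protease ADAMTS1, which cuts proteoglycans, was at 125, 117 and 83.01 CPM in control against 44.2, 47.4 and 34.8 CPM in MMP14-KO libraries. All MMP14-KO libraries lay well below the lowest control (log2 fold change -1.36, SE 0.140, edgeR quasi-likelihood adjusted p = 1.11e-05). PRSS2, an anionic trypsinogen, was at 276, 272 and 333 CPM in control against 153, 144 and 154 CPM in MMP14-KO libraries, with the 3 MMP14-KO libraries close together (log2 fold change -0.97, SE 0.185, edgeR quasi-likelihood adjusted p = 0.0028).

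**Figure D2:**
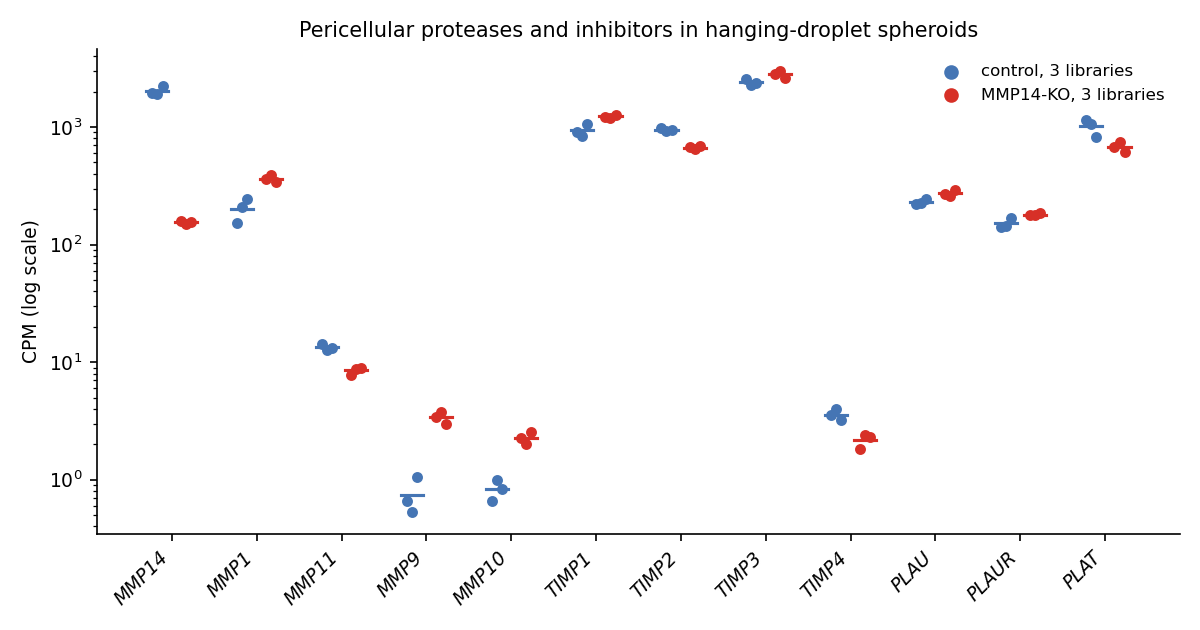
CPM on a log axis for 12 protease, inhibitor and plasminogen-system genes, with 1 point per library (3 control in blue, 3 MMP14-KO in red) and a bar at each mean. MMP14 falls from 2045 to 154.5 CPM on average, MMP1, MMP9 and MMP10 rise, and TIMP2, TIMP4, MMP11 and PLAT fall.

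Fibronectin, type VI collagen chains, laminin alpha 4 and SPARC were higher in MMP14-KO droplets, and the type I collagen chain COL1A2 and the fibril-associated COL12A1 were lower. Of 27 tested collagen chains 6 rose and 4 fell (median 0.08), of 12 laminin and basement membrane genes 3 rose and 0 fell (median 0.18), and of 44 matrix glycoproteins and proteoglycans 11 rose and 6 fell (median -0.03). FN1 encodes fibronectin, the glycoprotein that cells assemble into fibrils through integrins. Its level was 2053, 1615 and 2466 CPM in the control libraries and 4008, 4165 and 4639.8 CPM in the MMP14-KO libraries. The lowest MMP14-KO library was well above the highest control (log2 fold change 1.06, SE 0.128, edgeR quasi-likelihood adjusted p = 3.52e-05). COL6A2 was at 66.3, 59.98 and 64.3 CPM in control against 207, 202 and 227 CPM in MMP14-KO libraries (log2 fold change 1.74, SE 0.0729, edgeR quasi-likelihood adjusted p = 1.54e-13). Its neighbour on chromosome 21, COL6A1, encodes the partner chain of the same type VI microfibril and was at 623, 555 and 523 CPM in control against 794, 753 and 757 CPM in MMP14-KO libraries (log2 fold change 0.44, SE 0.0938, edgeR quasi-likelihood adjusted p = 0.00308). Both chains were higher in every MMP14-KO library.

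LAMA4, a laminin chain of vessel basement membranes, was at 5.00, 4.25 and 4.55 CPM in control against 20.1, 19.6 and 22.4 CPM in MMP14-KO libraries. The MMP14-KO libraries were close together, well above the controls (log2 fold change 2.18, SE 0.122, edgeR quasi-likelihood adjusted p = 1.52e-11). SPARC, a collagen-binding glycoprotein, was at 0.795, 0.571 and 1.51 CPM in control against 4.84, 4.73 and 7.96 CPM in MMP14-KO libraries, a gene near the floor in control cells (log2 fold change 2.60, SE 0.298, edgeR quasi-likelihood adjusted p = 3.9e-06). THBS2, an antiangiogenic thrombospondin, went from 3.98 ± 0.856 to 10.6 ± 2.43 CPM (SD, n = 3 each; log2 fold change 1.41, SE 0.173, edgeR quasi-likelihood adjusted p = 4.32e-06). COL1A2 was at 8.09, 5.03 and 5.83 CPM in control against 0.991, 0.700 and 0.854 CPM in MMP14-KO libraries. It fell to under 1 CPM in each MMP14-KO library (log2 fold change -2.89, SE 0.258, edgeR quasi-likelihood adjusted p = 4.87e-08). Fibroblast markers, which include COL1A2, fell in 3 of 6 tested genes, and none of the 10 listed was at 0 in all libraries. The summed level of the 6 tested markers was 47.0 to 59.4 CPM in control and 33.5 to 39.8 CPM in MMP14-KO libraries. Their part was not tested. COL12A1 was at 38.6, 34.3 and 30.4 CPM in control against 14.4, 18.5 and 15.4 CPM in MMP14-KO libraries (log2 fold change -1.09, SE 0.170, edgeR quasi-likelihood adjusted p = 0.000445), and MATN2, a filament-forming matrilin, had a log2 fold change of -0.93. COLGALT2, which glycosylates hydroxylysines of collagen, was at 119.9, 110.3 and 106 CPM in control against 55.7, 56.8 and 56.7 CPM in MMP14-KO libraries. It stood at about the same reduced level in the 3 MMP14-KO libraries (log2 fold change -0.99, SE 0.121, edgeR quasi-likelihood adjusted p = 3.2e-05). LAMA4 and SPARC overlap genes on the opposite strand.

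Integrin genes mostly did not pass: of 25 tested integrins and collagen receptors 4 rose and 2 fell (median -0.02). ITGB3, the beta chain of the vitronectin and fibronectin receptor, was at 43.2, 39.4 and 40.6 CPM in control against 81.6, 78.8 and 91.5 CPM in MMP14-KO libraries. The rise was uniform (log2 fold change 1.03, SE 0.0821, edgeR quasi-likelihood adjusted p = 9.27e-09). ITGA1, a collagen-binding alpha chain, was at 372, 353 and 409 CPM in control against 685, 743 and 625 CPM in MMP14-KO libraries (log2 fold change 0.86, SE 0.217, edgeR quasi-likelihood adjusted p = 0.0157). ITGA7, a laminin receptor chain, and ITGA11, a fibrillar collagen receptor chain, rose at low levels (1.78 and 1.53). SDC4, a syndecan that works with integrins at focal adhesions and a known MMP14 substrate, was at 258, 252 and 251 CPM in control against 199, 209 and 164 CPM in MMP14-KO libraries. It fell in each library (log2 fold change -0.41, SE 0.0789, edgeR quasi-likelihood adjusted p = 0.000851). The calls of ITGA1 and ITGA11 were lost in some fits: the adjusted p of edgeR's quasi-likelihood test exceeded 0.05 for ITGA1 with a replicate block (0.0668), without control replicate 1 (0.0558), without control replicate 2 (0.0662), without MMP14-KO replicate 2 (0.0518) and for ITGA11 without control replicate 2 (0.0547). ITGA1 and ITGA7 overlap genes on the opposite strand.

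Genes of the actin cytoskeleton were lower in MMP14-KO droplets. They are controlled in part by the coactivators MRTF-A and MRTF-B, which bind SRF when free actin monomer runs low, and SRF binds a short AT-rich motif named the CArG box. Of 33 tested MRTF-SRF target genes 13 fell and 0 rose (median -0.11, against -0.0013 over all genes; 1 rose by DESeq2 and 2 with a replicate block). Promoter sequences from RefSeq (GRCh38.p14), 250 bases before to 50 after each start, were searched on both strands for the CArG box. It was present for 9 of 30 target genes with a sequence and for 5 of the 11 that fell and had one. Of all genes with a sequence 1.60% had it, and of all that fell 2.42%. The list was made of known targets, so an excess over all genes may follow from that choice alone. The windows of 4 of the 5 falling targets are shown because they hold the motif SRF is known to bind, with the match in capitals.
CNN2, chr19:1026479-1026568, plus strand: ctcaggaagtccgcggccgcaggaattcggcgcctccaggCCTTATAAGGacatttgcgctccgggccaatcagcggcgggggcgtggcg
TGFB1I1, chr16:31473114-31473203, plus strand: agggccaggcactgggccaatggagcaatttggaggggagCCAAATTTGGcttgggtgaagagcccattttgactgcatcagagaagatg
ACTN1, chr14:68977688-68977777, minus strand: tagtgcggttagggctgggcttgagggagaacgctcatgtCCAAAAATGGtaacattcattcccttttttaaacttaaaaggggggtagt
FLNA, chrX:154374679-154374768, minus strand: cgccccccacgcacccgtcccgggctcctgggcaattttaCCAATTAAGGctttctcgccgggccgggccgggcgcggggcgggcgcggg
The matches begin 89, 51, 171 and 94 bases before the start. A match is a description of these letters and no evidence that SRF binds there.

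MYL9, the regulatory light chain of nonmuscle and smooth muscle myosin, was at 77.5, 71.7 and 68.1 CPM in the control libraries and 43.7, 46.2 and 42.4 CPM in the MMP14-KO libraries. Each MMP14-KO library was far under each control (log2 fold change -0.71, SE 0.0768, edgeR quasi-likelihood adjusted p = 8.06e-07). CNN2, an actin-binding calponin, was at 128, 122 and 118 CPM in control against 84.2, 80.8 and 82.97 CPM in MMP14-KO libraries, with little spread inside either group (log2 fold change -0.57, SE 0.0480, edgeR quasi-likelihood adjusted p = 2.1e-08). The myosin heavy chain MYH9 was at 1191, 1085 and 1055 CPM in control against 889.8, 933 and 932 CPM in MMP14-KO libraries (log2 fold change -0.27, SE 0.0594, edgeR quasi-likelihood adjusted p = 0.00216), the muscle-type filamin FLNC had a log2 fold change of -0.51 and TGFB1I1, the focal adhesion protein Hic-5, of -0.29. Smaller falls were of ACTN1 (-0.19), FLNA (-0.18), beta-actin ACTB (-0.21) and SRF itself (-0.19).

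NEDD9, a focal adhesion scaffold linked to migration, was at 51.1, 45.4 and 47.4 CPM in control against 27.3, 27.97 and 28.03 CPM in MMP14-KO libraries. It had nearly the same low level in the 3 MMP14-KO libraries (log2 fold change -0.79, SE 0.0711, edgeR quasi-likelihood adjusted p = 5.51e-08). The 13 MRTF-SRF genes became 7 without control replicate 1, 6 without MMP14-KO replicate 1 and 8 without MMP14-KO replicate 2. Among the genes named, the adjusted p of edgeR's quasi-likelihood test exceeded 0.05 for ACTN1 without control replicate 1 (0.118), without MMP14-KO replicate 1 (0.0738), without MMP14-KO replicate 3 (0.0682). It did so for FLNA with library-size scaling (0.0652), with upper-quartile scaling (0.06), without control replicate 1 (0.227), without control replicate 2 (0.0956), without MMP14-KO replicate 1 (0.173), without MMP14-KO replicate 3 (0.142). It also did for SRF without control replicate 1 (0.0682), without control replicate 3 (0.101), without MMP14-KO replicate 1 (0.0743), without MMP14-KO replicate 2 (0.146), and for ACTB without MMP14-KO replicate 2 (0.0578). CNN2, FLNC, FLNA, NEDD9 and TGFB1I1 overlap genes on the opposite strand. Counts in bulk RNA cannot tell fewer cells that express a gene from less RNA per cell, here and in all that follows.

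**Figure D3:**
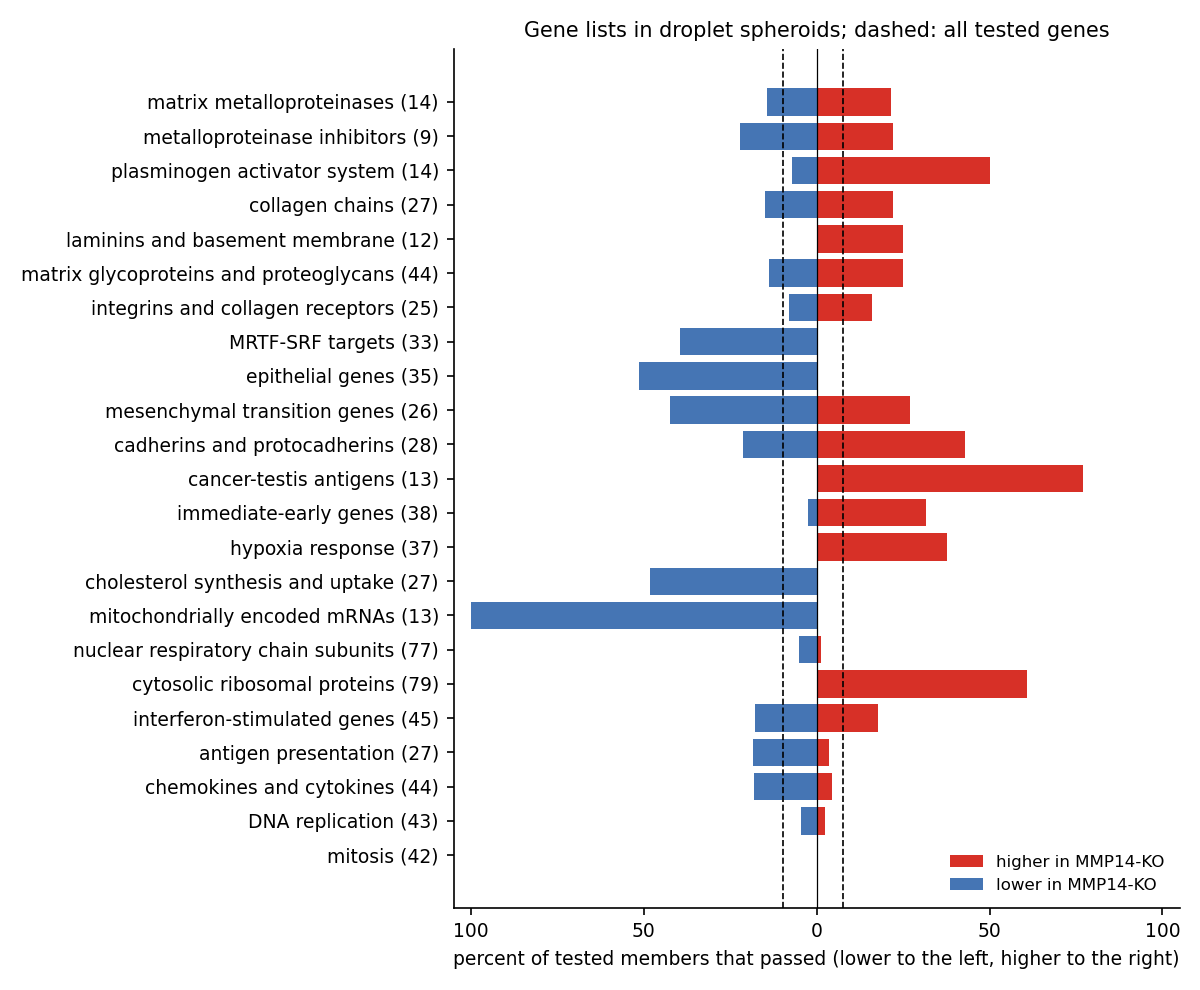
Percent of the tested members (number in brackets) of 23 gene lists that were higher (red, to the right) or lower (blue, to the left) in MMP14-KO droplets. The dashed lines at 7.70 and 9.70% mark all tested genes. Mitochondrially encoded mRNAs (13 of 13) and epithelial genes (18 of 35) lie to the left, and cancer-testis antigens (10 of 13) and ribosomal proteins (48 of 79) to the right. The counts of cancer-testis antigens and of cadherins are tilted towards rises, since members scarce in control had little room to fall.

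Residual epithelial genes of this mesenchymal-like line were lower in MMP14-KO droplets: of 35 tested 18 fell and 0 rose (median -0.36). The group holds junction proteins, keratins and epithelial splicing and trafficking factors. MUC1, a transmembrane mucin and known MMP14 substrate, was at 50.2, 43.7 and 31.4 CPM in the control libraries and 13.5, 13.4 and 14.1 CPM in the MMP14-KO libraries. All 3 MMP14-KO libraries held nearly the same low level (log2 fold change -1.61, SE 0.225, edgeR quasi-likelihood adjusted p = 0.000207). MAL2, an apical sorting protein, was at 88.2, 96.2 and 80.7 CPM in control against 50.5, 56.1 and 45.8 CPM in MMP14-KO libraries (log2 fold change -0.80, SE 0.0845, edgeR quasi-likelihood adjusted p = 7.58e-07). SPINT1, an inhibitor of the membrane serine protease matriptase, was at 25.8, 23.6 and 22.5 CPM in control against 11.6, 13.3 and 12.6 CPM in MMP14-KO libraries (log2 fold change -0.93, SE 0.181, edgeR quasi-likelihood adjusted p = 0.00191), and the tight junction genes LSR and OCLN had log2 fold changes of -0.68 and -0.62. The keratins KRT7 and KRT19 fell by less (-0.50 and -0.37). ESRP2, an epithelial splicing regulator, fell from 1 to 3 CPM to under 1 CPM (-2.11). RAB17, a GTPase of apical transport, was at 20.3, 18.7 and 6.47 CPM in control against 4.04, 4.62 and 1.54 CPM in MMP14-KO libraries. Replicate 3 was the lowest of each group and the groups did not overlap (log2 fold change -2.16, SE 0.431, edgeR quasi-likelihood adjusted p = 0.00357), but its call was lost in the fit of the droplet libraries alone (adjusted p = 0.103). Of 13 tested markers of luminal breast epithelium, 2 rose and 2 fell, and their summed level was 1541.7 to 1548.6 CPM in control and 1331 to 1383 CPM in MMP14-KO libraries, which was not tested as a part of this result. The 18 falling members became 11 without control replicate 2. MAL2, SPINT1, KRT7, RAB17 and ESRP2 overlap genes on the opposite strand.

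Mesenchymal transition genes split, with 7 of 26 higher and 11 lower (median -0.07). VIM, the intermediate filament vimentin, was at 2047, 1929.7 and 2195 CPM in control against 2479, 2243 and 2678 CPM in MMP14-KO libraries (log2 fold change 0.26, SE 0.0603, edgeR quasi-likelihood adjusted p = 0.00369), a small rise. FN1 and SPARC, described above, were the largest rises of the list. WNT5A, a noncanonical Wnt ligand, was at 3.22, 3.96 and 4.06 CPM in control against 0.357, 0.490 and 0.376 CPM in MMP14-KO libraries. It was nearly absent from MMP14-KO libraries (log2 fold change -3.19, SE 0.335, edgeR quasi-likelihood adjusted p = 5.37e-07). CDH11, a mesenchymal cadherin, was at 360.2, 374 and 392 CPM in control against 263, 282 and 260.4 CPM in MMP14-KO libraries (log2 fold change -0.49, SE 0.0677, edgeR quasi-likelihood adjusted p = 2.16e-05), and the receptor kinase AXL had a log2 fold change of -0.38. The water channel genes AQP1 and AQP5 fell from levels seen in each control library. AQP1 was at 22.5, 19.4 and 16.1 CPM in control against 3.96, 5.36 and 4.34 CPM in MMP14-KO libraries (log2 fold change -2.08, SE 0.166, edgeR quasi-likelihood adjusted p = 4.95e-08). AQP5 was at 15.002, 9.88 and 6.77 CPM in control against 2.34, 2.98 and 1.81 CPM in MMP14-KO libraries, with wide spread among controls (log2 fold change -2.14, SE 0.299, edgeR quasi-likelihood adjusted p = 5.59e-05). AXL and VIM overlap genes on the opposite strand.

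Ligands and receptors that act between cells also differed. EREG and AREG encode epiregulin and amphiregulin, ligands of the EGF receptor that are released from the membrane by proteases. EREG was at 13.5, 16.8 and 21.9 CPM in the control libraries and 52.8, 47.7 and 53.8 CPM in the MMP14-KO libraries. It was higher in each MMP14-KO library (log2 fold change 1.55, SE 0.144, edgeR quasi-likelihood adjusted p = 1.84e-06). AREG was at 48.3, 48.7 and 75.4 CPM in control against 105.01, 103 and 130.0 CPM in MMP14-KO libraries (log2 fold change 0.97, SE 0.212, edgeR quasi-likelihood adjusted p = 0.00678), a call that was lost in the fit of the droplet libraries alone (adjusted p = 0.0537). ERRFI1, the feedback inhibitor of the same receptor, was at 1433, 1432 and 1507 CPM in control against 2081, 2053 and 2002 CPM in MMP14-KO libraries, with almost no spread within groups (log2 fold change 0.49, SE 0.0900, edgeR quasi-likelihood adjusted p = 0.000731). Of 15 tested genes of the EGF receptor family and its ligands 3 rose and 3 fell. The falls were of the ligand genes EGF and NRG1 and of LRIG3.

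In the TGF-beta and BMP pathways 9 of 45 tested genes rose and 7 fell (backgrounds 7.70 and 9.70%, median 0.02). LEFTY1, a nodal antagonist, was at 3.41, 2.82 and 3.91 CPM in control against 14.3, 18.2 and 12.3 CPM in MMP14-KO libraries (log2 fold change 2.14, SE 0.268, edgeR quasi-likelihood adjusted p = 1.96e-05). INHBA, the activin A subunit, had a log2 fold change of 0.90, and the BMP target ID1 of 0.59. BMP2 rose (1.09) and BMP4 fell (-0.54), both ligands of the same receptors, with BMP4 at 297, 269 and 232 CPM in control against 185, 192 and 172 CPM in MMP14-KO libraries. The groups were apart for both. The frizzled receptor FZD8 was at 11.1, 10.5 and 11.7 CPM in control against 33.3, 34.2 and 33.7 CPM in MMP14-KO libraries. The 3 MMP14-KO libraries were nearly equal (log2 fold change 1.60, SE 0.0798, edgeR quasi-likelihood adjusted p = 1.91e-12). ENG, the TGF-beta coreceptor endoglin and a known MMP14 substrate, rose (2.57), as did TIE1 (3.29) and KDR (0.77), receptor genes best known from endothelium. Of 10 endothelial markers 4 were tested and 3 rose, which were TIE1, KDR and ROBO4 (0.57), while PECAM1 had 0.18 and did not pass. The other 6, CDH5, ERG, CLDN5 and EMCN among them, were too low to be tested. The summed level of the 4 tested markers was 72.0 to 77.5 CPM in control and 106.4 to 114.7 CPM in MMP14-KO libraries. Its part in these results was not tested. ERRFI1, ENG and ROBO4 overlap genes on the opposite strand.

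Genes of axon guidance and of cell adhesion changed in both directions. Of 51 tested axon guidance genes 12 rose and 6 fell (median 0.07), and the falls of the ephrin receptor EPHB1 (-3.17) and the semaphorin SEMA5A (-2.89) were larger than any rise in that list. IGSF3, an immunoglobulin superfamily membrane protein, was at 12.9, 13.1 and 12.2 CPM in control against 57.9, 56.6 and 57.6 CPM in MMP14-KO libraries. Neither group had a spread near the gap between them (log2 fold change 2.17, SE 0.0702, edgeR quasi-likelihood adjusted p = 1.07e-15). SLITRK6, a neuronal transmembrane protein with leucine-rich repeats, was at 15.9, 15.6 and 12.1 CPM in control against 51.9, 57.4 and 44.3 CPM in MMP14-KO libraries (log2 fold change 1.82, SE 0.141, edgeR quasi-likelihood adjusted p = 6.86e-08). ADGRL3, the adhesion receptor latrophilin 3, was at 1.45, 1.96 and 1.77 CPM in control against 15.2, 15.02 and 14.2 CPM in MMP14-KO libraries (log2 fold change 3.09, SE 0.180, edgeR quasi-likelihood adjusted p = 3.25e-11). SLIT2, a secreted ligand of Robo receptors, was at 72.1, 59.8 and 87.7 CPM in control against 138, 147 and 155 CPM in MMP14-KO libraries (log2 fold change 1.00, SE 0.0952, edgeR quasi-likelihood adjusted p = 7.58e-07). Of 28 tested cadherins and protocadherins 12 rose and 6 fell (backgrounds 7.70 and 9.70%, median 0.05). Members scarce in control, such as CDH7, were tested only through counts in other groups and could hardly fall. The count therefore describes expressed members only and is tilted towards rises. CDH19 was at 2.85, 1.89 and 1.51 CPM in control against 7.97, 8.02 and 7.58 CPM in MMP14-KO libraries (log2 fold change 1.93, SE 0.189, edgeR quasi-likelihood adjusted p = 1.86e-07), and CDH7 was at 0.0467, 0.178 and 0.0376 CPM in control against 3.88, 4.38 and 4.03 CPM in MMP14-KO libraries (log2 fold change 5.41, SE 0.368, edgeR quasi-likelihood adjusted p = 5.93e-10). The protocadherins PCDH7 and PCDH9 had 0.77 and 0.78. These examples all rose, while PCDH10 was among the 6 members that fell. Log2 fold changes in the list ran from -1.52 to 8.06. ADGRL3, EPHB1, PCDH9 and SEMA5A overlap genes on the opposite strand.

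Cancer-testis antigens are germline genes, many on the X chromosome, that are silent in most adult tissues and often derepressed in tumours. Of 34 listed 13 were tested, and 10 of these rose and 0 fell (median 1.57). The members that were tested are those with enough counts in some group, so the count describes expressed members only. Members scarce in control, MAGEA3 among them, had little room to fall, so the count is tilted towards rises. MAGEA6 was at 1.36, 1.21 and 1.35 CPM in control against 15.4, 16.1 and 15.8 CPM in MMP14-KO libraries (log2 fold change 3.59, SE 0.124, edgeR quasi-likelihood adjusted p = 1.94e-15) and MAGEA3 at 0.748, 0.749 and 0.602 CPM in control against 4.92, 5.50 and 4.81 CPM in MMP14-KO libraries (log2 fold change 2.85, SE 0.228, edgeR quasi-likelihood adjusted p = 9.16e-09). These genes are near-identical copies, and reads could have been assigned to either. PAGE5 was at 4.72, 4.64 and 5.04 CPM in control against 31.8, 30.03 and 31.4 CPM in MMP14-KO libraries. The gap between the groups was wide beside the spread within them (log2 fold change 2.69, SE 0.0885, edgeR quasi-likelihood adjusted p = 1.07e-15). SSX1 and MAGEC2 had log2 fold changes of 2.66 and 1.57.

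Immediate-early genes, which respond to growth factor signalling within minutes, were higher in 12 of 38 and lower in 1 (median 0.21). DUSP6, the ERK phosphatase that serves as a readout of ERK activity, was at 689, 681 and 759 CPM in control against 984, 986 and 1029.9 CPM in MMP14-KO libraries (log2 fold change 0.49, SE 0.0646, edgeR quasi-likelihood adjusted p = 9.2e-06). SPRY4, another feedback inhibitor of the pathway, was at 183, 157 and 157 CPM in control against 215, 222 and 208 CPM in MMP14-KO libraries (log2 fold change 0.38, SE 0.0643, edgeR quasi-likelihood adjusted p = 0.000212). The zinc finger gene EGR3 had a log2 fold change of 0.59. The member that fell was SRF. Without control replicate 2 the 12 became 7. DUSP6 and EGR3 overlap genes on the opposite strand.

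Genes induced by the hypoxia-inducible factors were higher in MMP14-KO droplets. These factors are stabilised when oxygen is low, as it often is inside spheroids, and bind the core ACGTG. Of 37 tested hypoxia genes 14 rose and 0 fell (median 0.16). Glycolysis genes, many of them targets of the same factors, mostly did not pass: 2 of 22 rose and 1 fell. ACGTG was searched on both strands of the RefSeq promoters. It was present for 19 of 30 hypoxia genes with a sequence and for 7 of the 10 that rose and had one. Of all genes with a sequence 24.9% had it, of tested ones 31.5%, and of all that rose 29.7%. The list was made of known hypoxia genes, so an excess over all genes may follow from that choice alone. The windows of 4 that rose are shown, with the match in capitals (CACGT is the same core read on the other strand).
BNIP3, chr10:131982012-131982096, minus strand: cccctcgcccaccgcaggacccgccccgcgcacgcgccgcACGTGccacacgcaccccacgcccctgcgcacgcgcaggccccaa
MXI1, chr10:110210078-110210162, plus strand: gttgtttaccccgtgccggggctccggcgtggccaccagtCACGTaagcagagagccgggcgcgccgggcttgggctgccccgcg
P4HA1, chr10:73096908-73096992, minus strand: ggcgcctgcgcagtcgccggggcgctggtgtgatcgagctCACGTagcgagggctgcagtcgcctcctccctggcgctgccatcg
PPFIA4, chr1:203026333-203026417, plus strand: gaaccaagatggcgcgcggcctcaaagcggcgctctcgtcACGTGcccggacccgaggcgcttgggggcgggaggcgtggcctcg
The core is short and common, and its presence says nothing of a factor bound there.

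NDRG1, a stress-induced protein and a well known hypoxia-induced gene, was at 777, 695 and 740.2 CPM in the control libraries and 1325, 1321 and 1261 CPM in the MMP14-KO libraries. The groups were far apart for an abundant gene (log2 fold change 0.82, SE 0.229, edgeR quasi-likelihood adjusted p = 0.0265). STC1, a secreted stanniocalcin, was at 281, 263 and 297 CPM in control against 598, 624 and 503 CPM in MMP14-KO libraries (log2 fold change 1.04, SE 0.238, edgeR quasi-likelihood adjusted p = 0.00903). PGK1, a glycolytic kinase, was at 1087, 1076 and 1175 CPM in control against 1519, 1604 and 1585 CPM in MMP14-KO libraries (log2 fold change 0.50, SE 0.0768, edgeR quasi-likelihood adjusted p = 8.98e-05), and the histone demethylase KDM3A had a log2 fold change of 0.39. MXI1, a MYC antagonist, was at 59.3, 57.1 and 57.4 CPM in control against 75.9, 81.9 and 73.9 CPM in MMP14-KO libraries (log2 fold change 0.42, SE 0.0871, edgeR quasi-likelihood adjusted p = 0.00196). BNIP3, a mitophagy receptor, and P4HA1, the collagen prolyl hydroxylase subunit, rose by 0.31 and 0.37. PPFIA4, a liprin, rose by 0.71 at a low level. The 14 became 6 without control replicate 2, 9 without control replicate 3, 9 without MMP14-KO replicate 1 and 6 without MMP14-KO replicate 3. By edgeR's quasi-likelihood test the adjusted p exceeded 0.05 for NDRG1 without control replicate 1 (0.0629), without control replicate 2 (0.0906), without control replicate 3 (0.0596), without MMP14-KO replicate 1 (0.0669), without MMP14-KO replicate 2 (0.0612), without MMP14-KO replicate 3 (0.0594). It did so for BNIP3 without control replicate 2 (0.0745), and for P4HA1 without control replicate 2 (0.0771), without MMP14-KO replicate 3 (0.0567) and for PPFIA4 without control replicate 2 (0.149), without control replicate 3 (0.104), without MMP14-KO replicate 1 (0.0908), without MMP14-KO replicate 3 (0.106). P4HA1 and MXI1 overlap genes on the opposite strand.

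Cholesterol synthesis and uptake genes, which SREBP2 switches on when membrane cholesterol falls, were lower: 13 of 27 tested fell and 0 rose (median -0.25). SC5D, a late-step desaturase, was at 57.6, 64.5 and 59.3 CPM in the control libraries and 36.9, 39.3 and 39.2 CPM in the MMP14-KO libraries. The 3 MMP14-KO libraries lay close together under all controls (log2 fold change -0.65, SE 0.0610, edgeR quasi-likelihood adjusted p = 9.49e-08). LSS, which closes the sterol rings, was at 98.01, 109.6 and 88.01 CPM in control against 74.4, 71.4 and 71.02 CPM in MMP14-KO libraries (log2 fold change -0.45, SE 0.0678, edgeR quasi-likelihood adjusted p = 5.81e-05), and STARD4, a sterol carrier, at 55.6, 63.9 and 50.7 CPM in control against 42.9, 43.2 and 35.4 CPM in MMP14-KO libraries (log2 fold change -0.49, SE 0.0917, edgeR quasi-likelihood adjusted p = 0.000726). DHCR7, the reductase of the last step, had a log2 fold change of -0.65. Control replicate 2 was the highest control for each of these genes. The 13 became 6 without control replicate 2, 7 without MMP14-KO replicate 1 and 6 without MMP14-KO replicate 3. ELOVL6, a fatty acid elongase under the related factor SREBP1, was at 105.3, 118 and 110.1 CPM in control against 79.7, 74.2 and 79.6 CPM in MMP14-KO libraries (log2 fold change -0.52, SE 0.0529, edgeR quasi-likelihood adjusted p = 3.62e-07). LSS and STARD4 overlap genes on the opposite strand.

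Transcripts of the mitochondrial genome were lower in MMP14-KO droplets as a block. All 13 mitochondrially encoded mRNAs fell, with log2 fold changes of -1.09 to -0.59 and a median of -0.85. These genes encode core subunits of the respiratory complexes and are transcribed together from both strands of the circular genome. MT-CO1, a subunit of complex IV, was at 6074, 6263 and 4861 CPM in the control libraries and 4239, 2427 and 3722 CPM in the MMP14-KO libraries. MMP14-KO replicate 2 was the lowest library, and the nearest MMP14-KO library was close under the lowest control (log2 fold change -0.73, SE 0.191, edgeR quasi-likelihood adjusted p = 0.0188). MT-ND2, of complex I, was at 2038, 1923 and 1608 CPM in control against 1091, 570.3 and 954 CPM in MMP14-KO libraries (log2 fold change -1.09, SE 0.188, edgeR quasi-likelihood adjusted p = 0.00126). MT-CYB, of complex III, was at 1259, 1212 and 1008 CPM in control against 765, 388 and 639 CPM in MMP14-KO libraries (log2 fold change -0.96, SE 0.213, edgeR quasi-likelihood adjusted p = 0.00757). MT-ATP6, of ATP synthase, was at 1946, 1880.3 and 1534 CPM in control against 1176, 622 and 1101 CPM in MMP14-KO libraries (log2 fold change -0.89, SE 0.207, edgeR quasi-likelihood adjusted p = 0.00988).

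As a share of all counts, mitochondrially encoded transcripts made up 2.62, 2.65 and 2.10% in control and 1.74, 0.971 and 1.51% in MMP14-KO libraries. The groups did not overlap (exact two-sided permutation p = 0.1, the smallest that 3 against 3 allows). In the fit of the droplet libraries alone 0 of the 13 passed, with adjusted p of 0.0699 to 0.142 by edgeR's quasi-likelihood test. Single libraries also decided calls, such as MT-CO1 in the fit of the droplet libraries alone (0.131), without control replicate 1 (0.0646), without control replicate 2 (0.0739). With the replicate block MT-ATP8 had an adjusted p of 0.102. Nuclear genes of the same complexes mostly did not pass: of 77 tested 1 rose and 4 fell (median 0.03), and of 35 genes for mitochondrial RNA maintenance 3 rose and 2 fell. At 24 h in collagen, where 29.4% of all genes passed, 0 of the 13 did (median 0.02), and at 48 h, where 29.5% passed, 2 were lower (median -0.23). The difference between conditions passed for 1 of the 13 at 24 h, MT-CO1 (background 7.41%), and for 0 at 48 h (background 6.79%).

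Cytosolic ribosomal protein genes moved the other way. Of 79 tested, 48 rose and 0 fell (median 0.24). RPL38 was at 70.2, 72.8 and 74.99 CPM in control against 96.3, 96.6 and 96.6 CPM in MMP14-KO libraries. The MMP14-KO libraries were nearly equal and all above the controls (log2 fold change 0.41, SE 0.0912, edgeR quasi-likelihood adjusted p = 0.00395). RPL39 was at 157, 170.1 and 199 CPM in control against 249, 242 and 248 CPM in MMP14-KO libraries (log2 fold change 0.49, SE 0.0893, edgeR quasi-likelihood adjusted p = 0.000776), and RPL36A had a log2 fold change of 0.55. Together these mRNAs made up 2.42 to 2.76% of counts in control and 2.98 to 3.08% in MMP14-KO droplets (exact two-sided permutation p = 0.1, the smallest possible). The 48 became 20 without control replicate 1, 27 without control replicate 2 and 29 without MMP14-KO replicate 3. In collagen 36 were lower and 0 higher at 24 h (backgrounds 15.7 and 13.7%) and 10 lower and 0 higher at 48 h (15.1 and 14.4%). The difference between conditions passed for 58 at 24 h and 34 at 48 h (backgrounds 7.41 and 6.79%). Ribosomal protein genes have many processed pseudogenes that share their reads, and RPL38 overlaps a gene on the opposite strand.

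**Figure D4:**
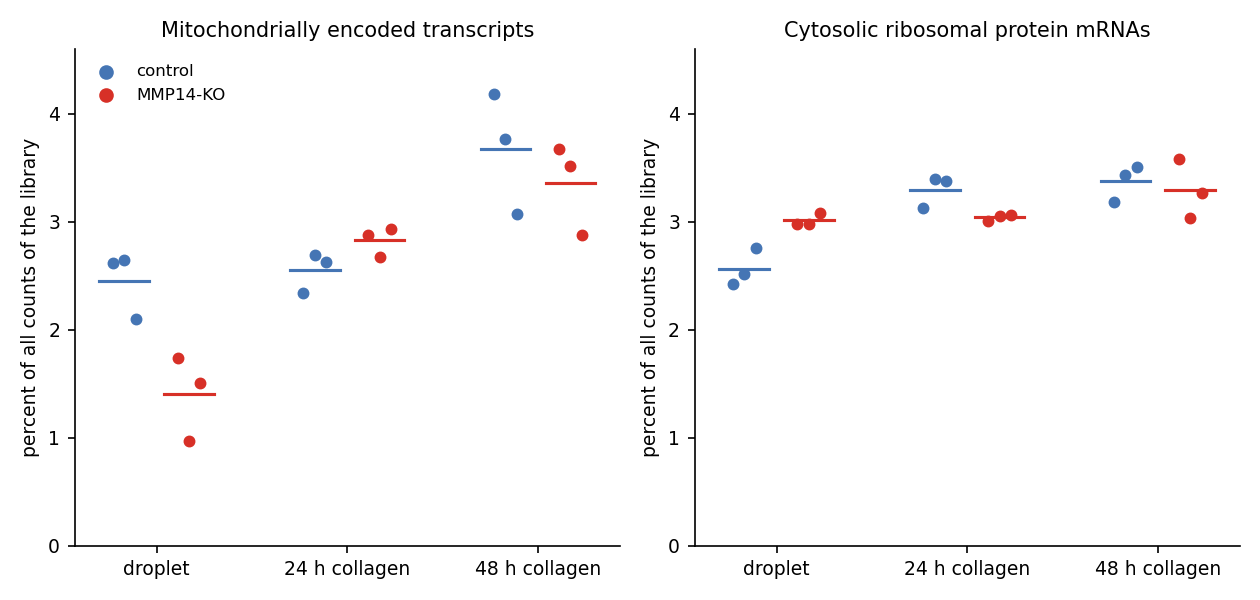
Percent of all counts per library (1 point each, bars at means of 3) from mitochondrially encoded transcripts (left) and cytosolic ribosomal protein mRNAs (right), by genotype and condition. In droplets the mitochondrial share is 2.10 to 2.65% in control and 0.971 to 1.74% in MMP14-KO libraries, and the ribosomal protein share is 2.42 to 2.76% and 2.98 to 3.08%.

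Immune genes had no common direction. Of 45 tested interferon-stimulated genes 8 rose and 8 fell (median -0.02). OAS1, the antiviral 2'-5' oligoadenylate synthetase, was at 9.49, 10.5 and 8.88 CPM in control against 31.9, 32.4 and 32.9 CPM in MMP14-KO libraries. Spread within groups was small beside the gap (log2 fold change 1.75, SE 0.116, edgeR quasi-likelihood adjusted p = 3.63e-10). Of 44 chemokine, cytokine and NF-kB genes 2 rose and 8 fell (median -0.35). TNFSF10, the death ligand TRAIL, was at 173, 171 and 205 CPM in control against 89.9, 92.2 and 95.5 CPM in MMP14-KO libraries (log2 fold change -0.98, SE 0.161, edgeR quasi-likelihood adjusted p = 0.000797), and BIRC3, an NF-kB target that inhibits apoptosis, at 232, 259 and 260.2 CPM in control against 138, 146 and 142 CPM in MMP14-KO libraries (log2 fold change -0.82, SE 0.195, edgeR quasi-likelihood adjusted p = 0.0112). Of 27 antigen presentation genes 5 fell and 1 rose. TAPBP, the peptide-loading protein tapasin, was at 577, 548 and 521 CPM in control against 377, 372 and 358 CPM in MMP14-KO libraries (log2 fold change -0.57, SE 0.0691, edgeR quasi-likelihood adjusted p = 3.63e-06). TAP1, a subunit of the peptide transporter, was at 189, 197 and 219 CPM in control against 147, 148 and 150.1 CPM in MMP14-KO libraries (log2 fold change -0.44, SE 0.0719, edgeR quasi-likelihood adjusted p = 0.000141). HLA-E fell by less (-0.30). All 5 that fell lie on chromosome 6 below 80 Mb, where 18 of the 27 are located, and 0 of the 9 located elsewhere passed. OAS1 and TAP1 overlap genes on the opposite strand.

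That stretch of chromosome 6 was lower as a whole. The limits of this and the other stretches were chosen after the values were seen, and the counts are a description with no test. Of 366 genes with a mean of at least 5 CPM and a start below 80 Mb on chromosome 6, 197 (53.8%) were lower and 5 higher, with a median log2 fold change of -0.20. Over all 11214 such genes on chromosomes 1 to 22 and X, 12.35% were lower and 8.33% higher. Relative to the mean of the controls, the median level of the stretch was -0.204, -0.211 and -0.209 (log2) in the MMP14-KO libraries and -0.00053, -0.0065 and 0.0039 in the controls. From 80 Mb to the end of the chromosome 22 of 221 genes were lower and 30 higher (median 0.02). On the same measure the stretch of chromosome 6 was at -0.23 at 24 h and -0.20 at 48 h in collagen.

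Chromosome 11 from 100 Mb had 73 of 132 genes lower (55.3%) and 3 higher, with a median of -0.23, against -0.05 for the 514 genes below 100 Mb. MMP1 and MMP10 lie in this stretch and rose. Chromosome 15 from 60 Mb had 55 of 197 genes higher (27.9%) and 3 lower (median 0.14). Chromosome X from 100 Mb had 46 of 165 higher and 9 lower (median 0.09), and below 100 Mb 28 of 219 higher and 32 lower. Raised stretches were not confined to these. Chromosome X from 60 to 70 Mb had 9 of 13 higher and 1 lower (median 0.27). Chromosome 8 from 100 to 110 Mb had 10 of 24 higher and 2 lower (median 0.15). Within 5 Mb on each side of MMP14 on chromosome 14, 7 of 69 genes were higher and 3 lower (median 0.05). Farther along chromosome 14, the stretches of 10 Mb from 70 Mb on had 15 of 60, 4 of 13, 9 of 42 and 14 of 44 genes lower. They had 0, 0, 2 and 0 higher, with medians of -0.08, -0.09, -0.08 and -0.14. Lowered stretches lay elsewhere too. Chromosome 19 from 0 to 10 Mb had 54 of 160 lower and 6 higher (median -0.14). Chromosome 11 from 60 to 70 Mb had 45 of 181 lower and 0 higher (median -0.08). By whole chromosome, 26.8% of tested genes were lower on chromosome 6 and 19.4% on chromosome 11. Of the genes described above, TAPBP, TAP1, HLA-E, NEDD9, SRF and COL12A1 lie in the chromosome 6 stretch, and BIRC3, SC5D, ROBO4 and the matrix metalloproteinase genes MMP1, MMP3, MMP10 and MMP13 in that of chromosome 11. ITGA11 and ANXA2 lie in the chromosome 15 stretch, and MAGEA3, MAGEA6, MAGEC2, FLNA, RPL36A and RPL39 in that of chromosome X.

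**Figure D5:**
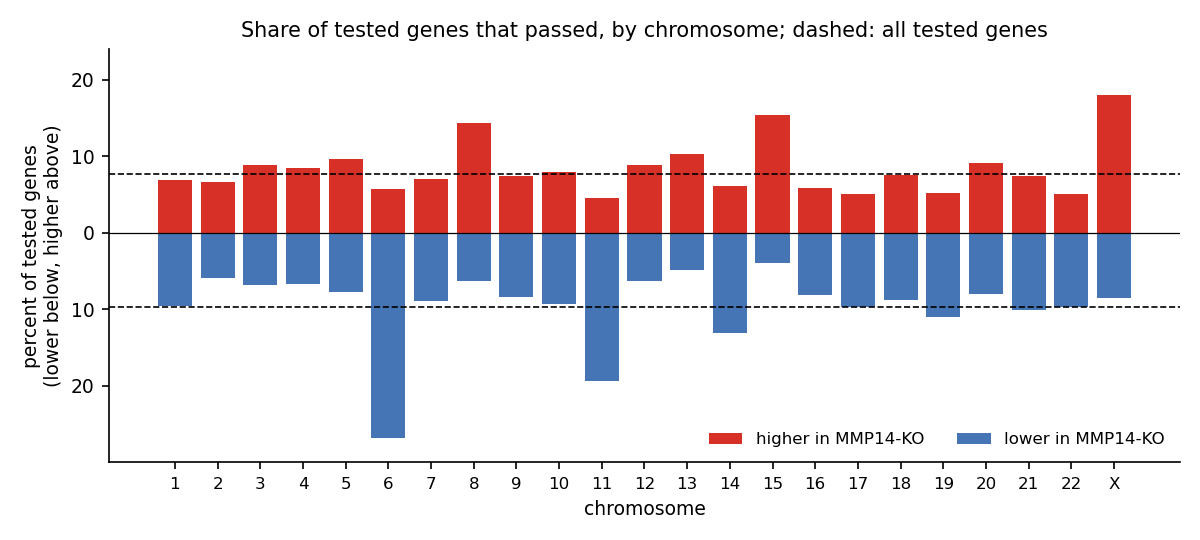
Percent of the tested genes of each chromosome that were higher (red, above) or lower (blue, below) in MMP14-KO droplets, with dashed lines at 7.70 and 9.70% for all tested genes. Chromosomes 6 (26.8%) and 11 (19.4%) have the largest shares lower and chromosome X (17.99%) the largest share higher.

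Few proliferation genes passed in droplets. Of 42 tested mitosis genes 0 passed by edgeR's quasi-likelihood test, 2 had an unadjusted p under 0.05 and DESeq2 called 2, and the median log2 fold change was -0.07. Of 43 DNA replication genes 1 rose and 2 fell (median -0.00054). In collagen at 24 h all 42 mitosis genes and 42 of 43 replication genes were lower (background 15.7%). The difference between conditions passed for 11 mitosis and 31 replication genes at 24 h (background 7.41%). At 48 h it passed for 0 and 10 (background 6.79%).

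Many genes that differed at least 2-fold in droplets also passed in collagen. The libraries in collagen are separate samples of the same genotypes. Of 331 such genes that rose in droplets, 245 (74.0%) were also higher at both 24 h and 48 h. Of 164 that fell, 53 (32.3%) were lower at both. Over all genes tested, 13.7% were higher and 15.7% lower at 24 h, and 14.4% higher and 15.1% lower at 48 h. These shares are for 1 time each, and the share at both times over all genes was not counted. Of the 331, 154 had a mean under 1 CPM in droplets and 115 a mean of 1 to 5 CPM. The filter drew on all 6 groups, so scarce genes could enter through MMP14-KO libraries in collagen. Agreement in collagen is partly built in for such rises. The genotype difference itself changed, tested as an interaction, for 33 of the 331 and 58 of the 164 at 24 h or 48 h. These genes were picked by their difference in the droplet libraries, which also enter the interaction. A smaller difference in collagen is therefore partly built into these counts, and into MUC1, AQP5 and RAB17 below. Over all genes the interaction passed for 1262 at 24 h (7.41%) and 1156 at 48 h (6.79%). IGSF3, ADGRL3, COL6A2, LAMA4 and the MAGE genes stayed higher (IGSF3 by 2.56 at 24 h and 2.72 at 48 h, COL6A2 by 1.73 at 24 h and 2.27 at 48 h, LAMA4 by 2.11 at 24 h and 2.35 at 48 h). MUC1, AQP5 and RAB17, all lower in droplets, had log2 fold changes of -0.36 at 24 h and 0.04 at 48 h, of 0.20 at 24 h and 0.37 at 48 h and of 0.34 at 24 h and 0.51 at 48 h, none of which passed, and for each the interaction passed at both times. With library-size scaling 59.0% of interaction calls at 24 h and 73.9% at 48 h were positive (a KO level higher relative to control than in droplets), against 44.8 and 59.0% with TMM. With DESeq2 the share at 48 h was 48.7%. The interaction counts rest on few libraries: at 24 h 473 without control replicate 1, 624 without control replicate 2 and 619 without MMP14-KO replicate 3, and at 48 h 316, 458 and 1977 without control replicate 1, 2 and 3, and 707 and 394 without MMP14-KO replicate 1 and 3. With a replicate block the count at 48 h was 1875.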

How the data were processed

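RNA of 18 libraries, 6 groups of 3, was analysed from a table of expected counts per gene that the authors deposited. The submitters' processing notes name cutadapt 2.3, FastQC 0.11.8, STAR 2.7.8a, RSEM 1.3.3, MultiQC 1.7, DESeq2 1.42.0 and GRCh38; the strand setting is not given in the sources used here. Of 62714 rows, 4 reporter rows that name no human gene were left out. Expected counts were taken as deposited, filtered with filterByExpr (minimum count 10) and scaled by TMM. All libraries entered 1 quasi-likelihood fit (edgeR 4.0.16, R 4.3.3) with Benjamini-Hochberg adjustment over 17030 genes. CPM are TMM-scaled. SE is the log2 fold change divided by the root of F. The fit was tested on simulated data. Gene positions and overlaps are from GENCODE 29, promoters from RefSeq (GRCh38.p14). Alternatives were DESeq2 1.42.0, other scalings and filters, the droplet libraries alone, a replicate block and leaving out each droplet library.

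Members and lists were chosen with earlier results of these data known. The rule for named genes took MMP14, the largest rises and falls at 5 or 50 CPM and above, and up to 6 passing members per list by fold change, besides each metalloproteinase and inhibitor at 1 CPM or above and each mitochondrial mRNA. ACTB, ACTN1, BMP4, BNIP3, FLNA, KDM3A, KRT7, LSR, MATN2, MXI1, OCLN, PCDH7, PCDH9, PECAM1, PLAU, PLAUR, SPOCK1 and SRF fall outside it and were chosen after their values were seen. Results for some genes are not reported here. Deviations from the group means correlated between droplet libraries with the same replicate number (r = 0.171, 0.200 and 0.453 over 11315 genes). Pairs with different numbers had r of -0.347 to 0.178, and control replicate 1 correlated with MMP14-KO replicate 2 (0.178) about as much as with replicate 1. Each same-numbered r exceeded 0.1, but so did that of control replicate 1 with MMP14-KO replicate 2. These values therefore do not settle whether the numbers pair the samples. The main fit took the samples as unpaired, and the replicate block was run as an alternative.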

Additional observations from a re-analysis of the deposited data

Results flagged for a closer look

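The genotype difference in collagen was tested against that in droplets as an interaction (edgeR's quasi-likelihood test), and the genes of the text that passed at 24 h or 48 h are given with the change in log2 fold change, collagen minus droplets, at the time with the smaller adjusted p. Over all genes the interaction passed for 1262 at 24 h and 1156 at 48 h. Both times share the droplet libraries. Many genes of the text were chosen by their difference in those libraries, so a smaller difference in collagen is partly built in. In the protease systems, the difference moved up at 24 h, by the edgeR interaction test, with 0.68 for MMP11 (adjusted p = 0.048), 1.19 for TIMP4 (adjusted p = 0.017) and 1.11 for ADAMTS1 (adjusted p = 0.00678). It moved down at 24 h, by the edgeR interaction test, with -0.47 for PLAU (adjusted p = 0.00545) and -0.45 for PLAUR (adjusted p = 0.0142). A move up at 48 h was seen, by the edgeR interaction test, with 0.44 for MMP14 (adjusted p = 0.0297), 1.40 for MMP2 (adjusted p = 0.0223), 3.66 for MMP28 (adjusted p = 0.0262) and 3.26 for SERPINA5 (adjusted p = 0.00485). Among matrix and adhesion genes, the difference moved up at 24 h, by the edgeR interaction test, with 0.88 for COLGALT2 (adjusted p = 0.0102). It moved down at 24 h, by the edgeR interaction test, with -0.76 for FN1 (adjusted p = 0.0219). A move up at 48 h was seen, by the edgeR interaction test, with 0.72 for COL6A1 (adjusted p = 0.00903), 0.54 for COL6A2 (adjusted p = 0.00828), 1.52 for ITGA7 (adjusted p = 0.0305), 0.94 for NEDD9 (adjusted p = 7.25e-05) and 0.32 for TGFB1I1 (adjusted p = 0.0365). Among epithelial, mesenchymal and water channel genes, the difference moved up at 24 h, by the edgeR interaction test, with 1.22 for ESRP2 (adjusted p = 0.0403) and 1.01 for AQP1 (adjusted p = 0.0146). A move up at 48 h was seen, by the edgeR interaction test, with 1.66 for MUC1 (adjusted p = 0.017), 2.67 for RAB17 (adjusted p = 0.0326) and 2.52 for AQP5 (adjusted p = 0.00965). At 48 h it moved down, by the edgeR interaction test, with -0.38 for AXL (adjusted p = 0.0131). Among ligands and receptors, the difference moved up at 24 h, by the edgeR interaction test, with 0.79 for BMP4 (adjusted p = 0.000799) and 1.39 for SLITRK6 (adjusted p = 0.00438). It moved down at 24 h, by the edgeR interaction test, with -0.62 for BMP2 (adjusted p = 0.0253), -0.88 for INHBA (adjusted p = 0.00143), -0.91 for FZD8 (adjusted p = 0.000438), -1.12 for KDR (adjusted p = 0.00226), -0.72 for EFNB1 (adjusted p = 0.00297) and -0.65 for SLIT2 (adjusted p = 0.0102). A move up at 48 h was seen, by the edgeR interaction test, with 0.55 for IGSF3 (adjusted p = 0.00789). Among cancer-testis, signalling and immune genes, the difference moved up at 24 h, by the edgeR interaction test, with 0.93 for OAS1 (adjusted p = 0.0085). It moved down at 24 h, by the edgeR interaction test, with -0.44 for PAGE5 (adjusted p = 0.0385) and -0.35 for DUSP6 (adjusted p = 0.0235). A move up at 48 h was seen, by the edgeR interaction test, with 0.50 for TAPBP (adjusted p = 0.00828). At 48 h it moved down, by the edgeR interaction test, with -0.998 for MAGEA6 (adjusted p = 0.00569). Among metabolic, mitochondrial and ribosomal genes, the difference moved up at 24 h, by the edgeR interaction test, with 0.96 for MT-CO1 (adjusted p = 0.0492). It moved down at 24 h, by the edgeR interaction test, with -0.85 for PHGDH (adjusted p = 0.0101), -0.62 for RPL36A (adjusted p = 0.0132), -0.67 for RPL38 (adjusted p = 0.00729) and -0.56 for RPL39 (adjusted p = 0.0138). A move up at 48 h was seen, by the edgeR interaction test, with 0.45 for LSS (adjusted p = 0.0108), 0.53 for STARD4 (adjusted p = 0.0219) and 0.59 for DHCR7 (adjusted p = 0.0431).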

How the results depend on the processing

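No passing gene of the text changed direction under an alternative that was run; MMP2, MMP13 and RECK, which did not pass, changed sign under some. The balance of directions depended on the scaling: 44.3% of passing genes were higher with TMM, 50.7% with library-size and 52.0% with upper-quartile scaling, and the share of positive interactions at 24 h was 44.8, 59.0 and 54.3%, and 52.6% with at least 5 CPM. The 140 genes checked kept their call under DESeq2 and, for the 121 still tested, with at least 5 CPM in 3 libraries. The call was lost for 1 gene with library-size or upper-quartile scaling, 15 in the fit of the droplet libraries alone and 3 to 15 on leaving out a library. With the replicate block ITGA1 and MT-ATP8 lost their calls, the interaction counts were 1809 at 24 h and 1875 at 48 h, and no other gene of the text changed its call. In the gene lists recounted, the block moved the rising or falling members by at most 2. Without a filter on low counts the interactions passed for 2046 genes at 24 h and 2110 at 48 h, and with DESeq2 for 1783 and 1761. With at least 5 CPM, 1 metalloproteinase rose and the median of the family was -0.083, against 0.018. In the fit of the droplet libraries alone 0 of 13 mitochondrial mRNAs passed. With library-size scaling the chromosome medians were -0.103 for chromosome 6, -0.059 for 11, 0.10 for 15 and 0.071 for X, against -0.12, -0.076, 0.085 and 0.055. The causes were not tested.

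On leaving out 1 droplet library at a time, all passing genes numbered 1959 to 2949, interaction calls 473 to 1800 at 24 h and 316 to 1977 at 48 h. Rising members of the plasminogen system numbered 4 to 6, hypoxia genes 6 to 12, ribosomal protein genes 20 to 58 and immediate-early genes 7 to 10. Falling MRTF-SRF targets numbered 6 to 11, epithelial genes 11 to 20 and cholesterol genes 6 to 12. With 3 libraries per group, a difference below the spread between libraries is not detectable, and for genes near 1 CPM counting error adds to that spread.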

Other observations

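Other signalling groups held changes in both directions in MMP14-KO droplets. Of 23 tested Notch pathway genes 6 rose and 3 fell (median log2 fold change 0.03). HEY1, a transcriptional repressor induced by Notch, was at 0.748, 1.32 and 0.865 CPM in control against 3.21, 2.45 and 3.11 CPM in MMP14-KO libraries (log2 fold change 1.56, SE 0.248, edgeR quasi-likelihood adjusted p = 0.000104). The receptor gene NOTCH3 was at 2.29, 1.68 and 1.84 CPM in control against 3.13, 4.24 and 4.23 CPM in MMP14-KO libraries (log2 fold change 1.01, SE 0.233, edgeR quasi-likelihood adjusted p = 0.00377). The groups did not overlap for either gene. Of the axon guidance genes, EFNB1, a transmembrane ephrin ligand, was at 7.48, 6.74 and 7.60 CPM in control against 19.1, 19.04 and 17.04 CPM in MMP14-KO libraries (log2 fold change 1.34, SE 0.0905, edgeR quasi-likelihood adjusted p = 5.42e-10).

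Of 34 Wnt pathway genes 3 rose and 7 fell (median -0.0037). WNT7B, a ligand of the canonical pathway, had a log2 fold change of -0.67, and RNF43, a ubiquitin ligase that removes frizzled receptors, of -0.90. Of 36 ATF4 target genes, which respond to amino acid shortage, 8 rose and 2 fell (median 0.07). PHGDH, the first enzyme of serine synthesis, was at 3.27, 4.25 and 4.59 CPM in control against 10.9, 10.5 and 13.04 CPM in MMP14-KO libraries (log2 fold change 1.49, SE 0.138, edgeR quasi-likelihood adjusted p = 7.79e-08). Of 27 p53 target genes 3 rose and 3 fell, and of 27 unfolded protein response genes 0 rose and 3 fell by edgeR's quasi-likelihood test, with an unadjusted p under 0.05 for 10 and 3.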
